A study of Mus musculus with 12 samples.

Results

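Cultured fibro-adipogenic progenitors (FAPs) of mouse limb muscle that carried a vector for the K186R form of the survival motor neuron protein SMN, after treatment to delete Bap1, were compared with cells treated to delete Bap1 and given no vector. The members are the libraries whose titles give the group Smn1OE_K186R (3 libraries) and the group Bap1KO (3 libraries), 6 of the 12 RNA-seq libraries in the series, and only autosomal genes were counted. Per the labels, the cells were sorted as 7AAD-, Lin-, Vcam-, Sca1+ cells from fore- and hindlimb muscle and cultured in alpha-MEM that held 20% fetal bovine serum. Both groups received 1 µM 4-hydroxytamoxifen (4-OHT), and the medium was changed 24 hours later. The other groups, used here only for values side by side, are Smn1OE (4-OHT and a vector for unmutated SMN, 3 libraries) and WT (ethanol, no vector, 3 libraries). The constructs encode human SMN. The source label of Bap1KO names Prrx1Cre;Bap1f/f mice, a Cre active in limb mesenchyme, whereas the treatment text names Rosa-CreER, a tamoxifen-inducible Cre, so the driver is not settled by the labels. The labels give no age or sex and do not say whether replicates came from separate animals, so the p-values measure the spread between these samples, which may be technical.

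The design does not isolate the K186R protein. No library carried an empty vector. The Bap1KO libraries came from culture media batches A, B and C and the Smn1OE_K186R libraries from batches D, E and F, with none in common. The sex-linked genes divided the groups in the same way: Xist, the RNA of the inactive X chromosome, averaged 252 ± 54.0 CPM (counts scaled to library size; SD, n = 3) in Bap1KO and 0.0425 ± 0.0615 CPM in Smn1OE_K186R, while the Y-linked gene Eif2s3y was at 0 in all Bap1KO libraries and averaged 63.0 ± 6.0 CPM in Smn1OE_K186R. All Bap1KO libraries had the pattern of female cells and all Smn1OE_K186R libraries that of male cells. The cells of the 2 groups thus came from different animals. SMN overexpression, the vector, the media batch, the sex and the donor animals therefore cannot be told apart in any value below.

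SMN is the core of a complex with the Gemin proteins that loads Sm proteins onto small nuclear RNAs, the first step in making spliceosomal particles. Lysine-to-arginine forms such as K186R are used to remove a lysine that can carry ubiquitin or another modification. BAP1 is a nuclear deubiquitinase that removes ubiquitin from histone H2A and works with ASXL proteins. FAPs are the mesenchymal cells between muscle fibres: they lay down collagen and other matrix, can become adipocytes or matrix-rich fibroblasts, and secrete factors that support muscle fibres and their nerves.

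Library totals lay between 51988744 and 67796789 counts in the 6 libraries. Mitochondrial genes took 1.61 ± 0.0769% of the counts in Bap1KO and 2.04 ± 0.106% in Smn1OE_K186R (SD, n = 3). The cells of both groups had FAP marker transcripts, with the summed level of 24 FAP and fibroblast genes at 5003 to 6325 CPM in Bap1KO and 3544 to 4340 CPM in Smn1OE_K186R. Markers of several other cell types were low. Of 13 myogenic markers, 10 stayed under 1 CPM in all 6 libraries and Pax7, Myf5 and Myod1 had no read. Vcam1, also on that list and the marker the cells were sorted as negative for, was abundant. It had 6767 to 11756 reads in Bap1KO and 4140 to 7853 reads in Smn1OE_K186R. The summed myogenic level, most of it Vcam1, was 107 to 178 CPM in Bap1KO and 81.7 to 117 CPM in Smn1OE_K186R. Of 14 macrophage markers, 9 stayed under 1 CPM, as did 12 of 13 T and NK cell markers, 7 of 12 endothelial markers, 8 of 10 Schwann markers and 6 of 9 epithelial markers. Pericyte and tenocyte markers were present in both groups: 2 of 10 pericyte and smooth muscle markers and 2 of 8 tenocyte markers stayed under 1 CPM. In bulk RNA, fewer cells of a type and less RNA per cell cannot be told apart.

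Of 16034 autosomal genes tested, 5213 (32.5%) passed an adjusted p of 0.05 in edgeR's quasi-likelihood test, 2545 (15.9%) higher and 2668 (16.6%) lower with K186R SMN than in Bap1KO. At least 2-fold differences were called for 1430 genes (8.92%), 816 higher (5.09%) and 614 lower (3.83%). All 3 Smn1OE_K186R libraries lay above all 3 Bap1KO libraries for 21.5% of the genes and below them for 22.1%. The median log2 fold change over all autosomal genes was -0.01, so group counts below are read against a centre near 0. Calls counted in each gene list below are to be read beside the 15.9% higher and 16.6% lower given here. Without Bap1KO replicate 1 the calls fell to 3249, of which 3159 were shared with the full fit. Over the fits that left out 1 library, 1550 to 2468 autosomal genes were higher and 1699 to 2647 lower. List counts from those fits are to be read beside these numbers.

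**Figure D1:**
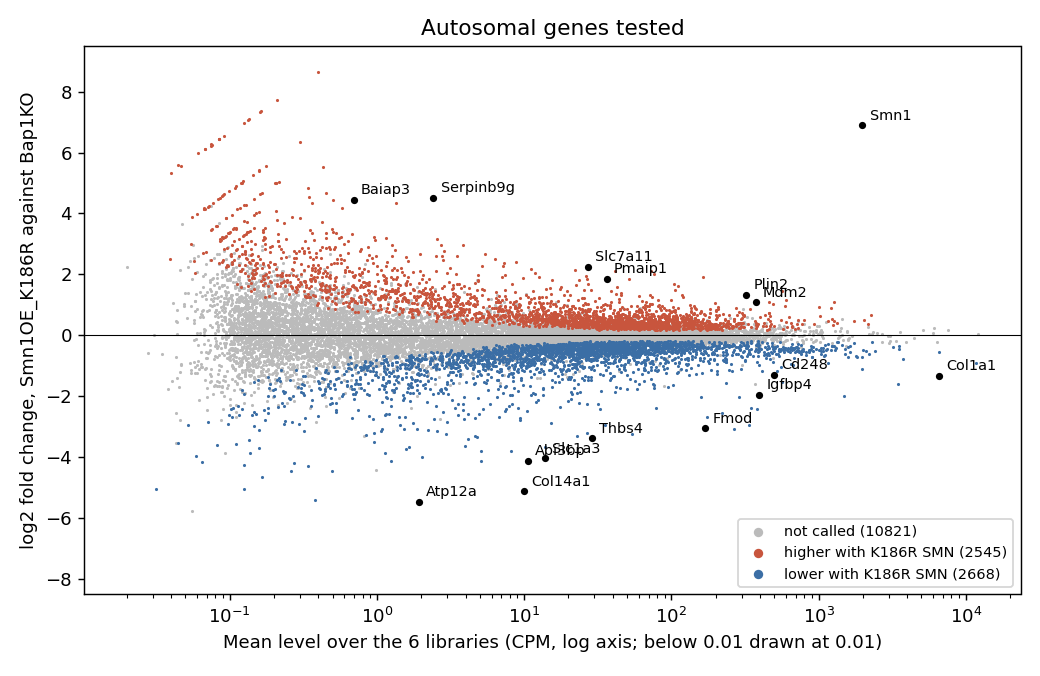
Log2 fold change of Smn1OE_K186R against Bap1KO (y axis) against the mean level over the 6 libraries in CPM (x axis, log scale), 1 point per autosomal gene tested, black for genes labelled by name, red for the 2545 called higher and blue for the 2668 called lower. Smn1 stands alone among abundant genes at the top, Fmod and Col1a1 are among the abundant genes below 0, and the slanted rows of red points at the upper left are genes with few or no reads in Bap1KO, whose fitted fold changes depend on the prior count.

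Counts at Smn1, which show the vector, were higher in every K186R library. Smn1 stood at 30.5, 35.1 and 33.0 CPM in Bap1KO replicates 1 to 3 and at 4356, 3688 and 3777 CPM in Smn1OE_K186R replicates 1 to 3. The groups were far apart, a ratio of means of 119.9 and a log2 fold change of 6.91 ± 0.16 (SE, adjusted p = 2.39e-10). Reads of the human construct that align to the mouse gene are counted with the mouse transcript. Bap1 itself, counted over the whole gene, read 42.3, 39.3 and 39.4 CPM in Bap1KO and 47.0, 41.7 and 47.3 CPM in Smn1OE_K186R. Its groups overlapped and the difference of 0.17 ± 0.07 did not pass the test (adjusted p = 0.081, or 0.0262 without Smn1OE_K186R replicate 2), so whole-gene counts do not show that the extent of deletion differed or was the same.

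Of 22 autosomal SMN complex and Sm protein genes tested, 3 were higher, 1 was lower and 18 were not called, with a median log2 fold change of -0.07, beside 15.9% higher and 16.6% lower over all autosomal genes. Beside Smn1 these were Strap, which binds the complex (0.25, adjusted p = 0.0112), and Gemin5, which recognises the small nuclear RNA (0.30, adjusted p = 0.0161). Gemin2, the partner that holds the Sm ring, read 9.09, 6.57 and 8.60 CPM in Bap1KO and 5.73, 6.08 and 6.01 CPM with K186R SMN (-0.45, adjusted p = 0.0309). Without Bap1KO replicate 1, Strap, Gemin5 and Gemin2 had adjusted p-values of 0.0662, 0.0556 and 0.116. Without Bap1KO replicate 3 or Smn1OE_K186R replicate 3, Gemin5 had 0.0675 and 0.0545, and Gemin2 lost its call without any single library other than Bap1KO replicate 2 (adjusted p up to 0.116).

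The largest rises after Smn1 were of transcripts scarce in FAPs. They were picked among genes above 1 CPM in a group that stayed called without any single library and whose groups did not overlap. Serpinb9g, a member of the granzyme-inhibitor serpins, rose from 0.0745, 0.396 and 0.127 CPM in Bap1KO to 4.89, 2.47 and 6.57 CPM (4.51 ± 0.59, adjusted p = 0.000519). Baiap3, a protein of vesicle release, rose from 0.0745, 0.0305 and 0.0726 CPM to 1.34, 1.08 and 1.58 CPM (4.45 ± 0.48, adjusted p = 0.000232). Trim69, a ubiquitin ligase of the tripartite motif family, rose from 0.0596, 0.0915 and 0.0181 CPM to 0.842, 1.06 and 1.39 CPM (4.20 ± 0.41, adjusted p = 0.000143). Separate groups were a condition for these 3 genes to be named, and every Bap1KO library was under 0.5 CPM. Hist1h4d, a replication-type histone H4 gene with near-identical copies that make its counts uncertain, rose by 3.16 on the log2 scale (adjusted p = 0.000602). Others were Slc6a15, a neutral amino acid transporter (3.19), Krt18, a keratin of simple epithelia (3.23), Lingo2 (3.12), Fam83f (3.33), Lce1h, a cornified envelope gene (4.33), the pseudogene Smarca5-ps (3.23) and the unnamed gene AC167363.2 (3.10), with adjusted p-values from 0.0015 to 0.00808.

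The largest falls, picked under the same conditions, were mostly of matrix proteins and surface proteins of quiescent or adventitial fibroblasts. Col14a1, a collagen that sits on the surface of fibrils, read 33.3, 3.48 and 21.7 CPM in Bap1KO and 0.842, 0.712 and 0.0753 CPM with K186R SMN (-5.11 ± 0.88, adjusted p = 0.00187). Slc1a3, a glutamate transporter, read 47.8, 12.4 and 18.3 CPM against 2.03, 1.93 and 0.791 CPM (-4.03 ± 0.53, adjusted p = 0.000546). Pi16, a marker of adventitial progenitors, read 3.49, 0.686 and 2.16 CPM against 0.0902, 0.174 and 0.169 CPM (-3.86 ± 0.62, adjusted p = 0.00131). That the groups did not overlap was a condition for naming these genes. Bap1KO replicate 2 was the lowest of its group each time. Itga11, the integrin subunit for fibrillar collagen, fell from 66.3, 13.7 and 45.1 CPM to 6.18, 4.71 and 1.71 CPM (-3.30 ± 0.60, adjusted p = 0.00244). Il1rn, the secreted antagonist of the interleukin 1 receptor, fell from 14.9, 2.24 and 8.04 CPM to 1.13, 1.02 and 0.377 CPM (-3.30 ± 0.67, adjusted p = 0.00402). Abi3bp (-4.11), Cilp (-3.79), Thbs4 (-3.37), Scara5 (-3.51), Megf6 (-3.67) and Atp12a (-5.46) were also among them. Atp12a read 8.64, 0.213 and 2.43 CPM in Bap1KO, and with media batch as a random term Atp12a and Megf6 were no longer called (adjusted p = 0.119 and 0.0505).

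Collagen genes were lower as a group. Of 21 collagen chains, all tested, 13 fell, 1 rose and 7 were not called, with a median log2 fold change of -0.97. Col1a1, the main chain of fibrillar type I collagen, read 10703, 6830 and 10790.5 CPM in Bap1KO and 3639, 4447 and 3203 CPM with K186R SMN (-1.33 ± 0.22, adjusted p = 0.00154). Col5a1, which sets fibril diameter, read 3148, 2015 and 2938 CPM against 1256, 1541 and 957 CPM (-1.11 ± 0.21, adjusted p = 0.00272). Col16a1, a fibril-associated collagen, read 235, 151 and 214 CPM against 109, 108 and 88.9 CPM (-0.97 ± 0.15, adjusted p = 0.000998). The groups did not overlap in any of the 3. The chains of type VI collagen were unequal: Col6a1 fell by 2.38 (adjusted p = 0.00354) and Col6a2 by 2.56 (adjusted p = 0.00455), while Col6a3 stood at -0.19 and was not called. The basement membrane chains Col4a1 (0.26) and Col4a2 (-0.08) were not called either. Col7a1, the anchoring fibril collagen, was the exception on the higher side, at 31.5, 69.1 and 49.1 CPM in Bap1KO and 89.4, 96.8 and 151 CPM with K186R SMN (1.17 ± 0.34, adjusted p = 0.0209). It was not called when Bap1KO replicate 1 or 3, or Smn1OE_K186R replicate 3, was left out (adjusted p = 0.0788, 0.0602 and 0.0796).

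Matrix glycoproteins and proteoglycans followed. Of 31 autosomal genes tested, 18 fell, 1 rose and 12 were not called (median -0.94). Fmod, a proteoglycan that organises collagen fibrils, read 414, 162 and 331 CPM in Bap1KO and 46.0, 38.4 and 25.3 CPM with K186R SMN (-3.05 ± 0.37, adjusted p = 0.000367). Comp, a cartilage and tendon matrix protein, read 63.4, 23.2 and 58.0 CPM against 7.01, 4.22 and 4.31 CPM (-3.21 ± 0.40, adjusted p = 0.000424). Thbs4, a thrombospondin of tendon and muscle, read 89.2, 20.9 and 47.4 CPM against 6.24, 6.59 and 2.26 CPM (-3.37 ± 0.58, adjusted p = 0.00181). All K186R libraries were below all Bap1KO libraries for these 3, which for Thbs4 was a condition of its naming among the largest falls. The elastic fibre genes Fbln5 and Loxl1 differed less, with Fbln5 at 293, 236 and 275 CPM against 150, 151 and 119 CPM (-0.94 ± 0.15, adjusted p = 0.00114) and Loxl1 at 553, 562 and 661 CPM against 386, 330 and 322 CPM (-0.77 ± 0.10, adjusted p = 0.000542). Eln, which encodes elastin, was near the detection limit, at 1.74, 0.229 and 0.272 CPM in Bap1KO and 0.0150, 0.0291 and 0 CPM with K186R SMN. Tnc, which encodes tenascin C, was the 1 gene of the list called higher (0.66).

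Replicates differed in these matrix genes. Of the 31 collagen and matrix genes called lower, 29 had Bap1KO replicate 2 as the lowest Bap1KO library and 27 had Smn1OE_K186R replicate 3 as the lowest K186R library. Without Bap1KO replicate 1, 9 collagens and 13 matrix genes were still called lower, against 10.3% of all genes in that fit (9.41% were higher), with medians of -0.85 and -0.68. With media batch as a random term, 14 and 19 were called lower, against 16.8% of all genes (16.1% were higher).

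**Figure D2:**
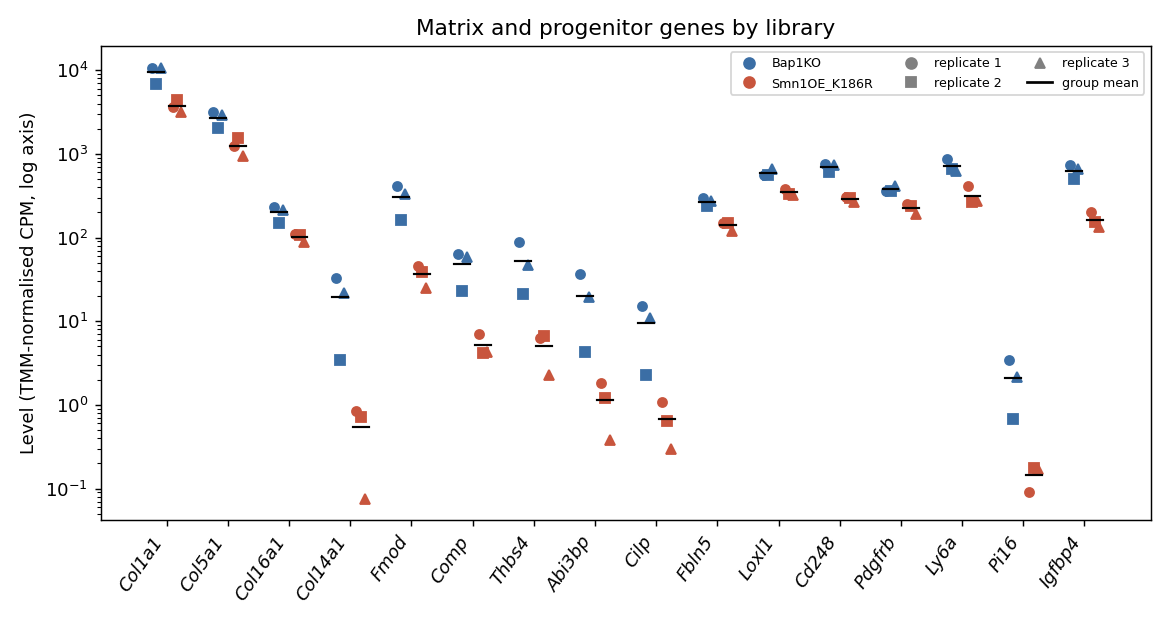
Levels of 16 matrix and progenitor genes in the 3 Bap1KO libraries (blue) and the 3 Smn1OE_K186R libraries (red), in TMM-normalised CPM on a log axis, with marker shape for the replicate and a black line at the group mean. The red points lie below the blue points in all 16 genes, and Bap1KO replicate 2 (square) lies closest to them for Col14a1, Fmod, Comp, Thbs4, Abi3bp and Cilp.

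FAP identity genes were lower in part. Of 24 tested, 11 fell, 2 rose and 11 were not called (median -0.56). Cd248, the surface protein endosialin, read 765, 602 and 742 CPM in Bap1KO and 303, 293 and 264 CPM with K186R SMN (-1.29 ± 0.11, adjusted p = 9.24e-05). Ly6a, which encodes the Sca1 antigen used in the sort, read 871, 652 and 630 CPM against 418, 263 and 274 CPM (-1.17 ± 0.21, adjusted p = 0.00242). Pdgfrb, a platelet-derived growth factor receptor, read 361, 359 and 410 CPM against 249, 241 and 194 CPM (-0.72 ± 0.10, adjusted p = 0.000548). The groups were separate in all 3. Pdgfra, the receptor most used to define FAPs, read 35.8, 26.2 and 39.3 CPM against 29.1, 24.0 and 15.5 CPM, with overlapping groups and no call (-0.56, adjusted p = 0.0757, or 0.0403 with media batch as a random term). Cd34, a progenitor surface protein, went the other way, from 25.5, 27.0 and 18 CPM to 46.4, 90.7 and 45.5 CPM (1.37 ± 0.33, adjusted p = 0.00904). Procr, the protein C receptor, was also higher, from 41.5, 88.1 and 73.2 CPM to 224, 111 and 170 CPM (1.32 ± 0.31, adjusted p = 0.00796, and 0.0687 at the highest among the alternatives run).

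Genes of bone, cartilage and tendon fate were called in both directions. Of 21 autosomal genes tested, 9 fell, 2 rose and 10 were not called (median -0.23). Fmod, Comp and Thbs4 belong here too. Sp7, an osteoblast transcription factor, read 2.15, 1.74 and 2.18 CPM in Bap1KO and 0.556, 0.640 and 0.546 CPM with K186R SMN (-1.79 ± 0.24, adjusted p = 0.000579). Col2a1, the cartilage collagen, read 8.15, 24.7 and 16.1 CPM against 1.83, 2.41 and 3.24 CPM (-2.71 ± 0.39, adjusted p = 0.000841). Bmp2, an osteogenic ligand, was called higher but scarce: 0.0149, 0.0152 and 0.0181 CPM in Bap1KO against 0.120, 0.363 and 0.339 CPM. Sox6, a cartilage transcription factor, was the other (1.77, adjusted p = 0.0427), and 1 of the list was higher without Bap1KO replicate 1, Smn1OE_K186R replicate 1 or Smn1OE_K186R replicate 2. The summed level of 8 tenocyte markers was 607, 228 and 460 CPM in Bap1KO and 73.1, 60.7 and 43.7 CPM with K186R SMN, most of it Fmod. Scx, the transcription factor that defines tenocytes, read 9.82, 7.40 and 9.35 CPM against 8.20, 4.97 and 6.61 CPM and was not called (-0.43, adjusted p = 0.156). The part of tenocyte-like cells in the matrix difference was not tested.

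Interferon-response genes were lower with K186R SMN, but their level in Bap1KO rested mainly on 1 library. Of 36 genes tested, 29 fell, none rose and 7 were not called (median -2.59). Without Bap1KO replicate 1 the list held 8 lower calls and 1 higher (median -1.25). It held 16 lower calls without Smn1OE_K186R replicate 2, 13 without Smn1OE_K186R replicate 3, and 10 with media batch as a random term. The summed level of the list was 1102, 286 and 433 CPM in Bap1KO replicates 1 to 3 and 250, 235 and 172 CPM in the K186R libraries, and Bap1KO replicate 1 was the highest of its group for all 36 genes. WT libraries held 447 to 595 CPM.

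Interferon-induced genes often carry a repeated GAAA element upstream of their start. The letters GAAA, any 2 bases and GAAA again, searched on both strands in the 250 bases before each RefSeq start (GRCm38.p6), were present for 14 of the 25 list members that had an entry in the promoter table, and for 3.09% of the 11229 tested autosomal genes with an entry (2.98% of all 32851 starts). Among the members called lower, 12 of 20 held it, and among the others 2 of 5. Windows of 4 members, chosen after the values were seen to show how the element repeats, are given 5′ to 3′ on the gene's strand, with the element or its reverse complement in capitals and neighbouring matches run together.
Isg15: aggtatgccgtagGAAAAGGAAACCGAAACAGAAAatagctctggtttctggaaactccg
Ifit1: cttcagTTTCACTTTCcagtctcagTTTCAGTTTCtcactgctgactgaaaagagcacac
Oas1a: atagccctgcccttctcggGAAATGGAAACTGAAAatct
Gbp3: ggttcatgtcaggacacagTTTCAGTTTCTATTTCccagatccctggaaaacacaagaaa
These lie before the start of each gene at chr4:156200850-156200909 (minus strand), chr19:34640779-34640838 (plus), chr5:120907526-120907564 (minus) and chr3:142559980-142560039 (plus). A match describes letters and not a bound site.

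Isg15, a ubiquitin-like protein, read 63.2, 3.98 and 10.2 CPM in Bap1KO and 3.74, 2.01 and 0.282 CPM with K186R SMN (-3.66 ± 1.04, adjusted p = 0.0187, or 0.134 without Bap1KO replicate 1). Ifit1, an RNA-binding antiviral protein, read 38, 1.66 and 6.08 CPM against 1.89, 1.13 and 0.207 CPM, and its groups overlapped (-3.80 ± 1.00, adjusted p = 0.0135, or 0.0920 without that library). Oas1a, an oligoadenylate synthetase, read 4.04, 0.671 and 1.18 CPM against 0.647, 0.189 and 0.113 CPM. Gbp3, a guanylate-binding protein, read 16.5, 0.762 and 2.98 CPM against 1.5, 1.09 and 0.377 CPM. In these 4 genes Bap1KO replicate 1 stood far above the other Bap1KO libraries, and for Oas1a and Gbp3 the adjusted p of 0.0200 and 0.0444 became 0.124 and 0.423 without it. Isg15 and Oas1a also lost their calls without Smn1OE_K186R replicate 2 (0.0573 and 0.0694) or replicate 3 (0.0506 and 0.0617), and Gbp3 lost its call without any K186R library (0.0643 to 0.121).

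The 4 interferon members with the smallest adjusted p follow. Irf1, a transcription factor of the pathway, read 13.9, 6.59 and 8.78 CPM against 4.50, 3.65 and 2.50 CPM (-1.46 ± 0.32, adjusted p = 0.00627). Ifi27 read 224, 107 and 135 CPM against 85.8, 62.8 and 54.1 CPM (-1.20 ± 0.27, adjusted p = 0.00675), and Ifi35 read 43.5, 22.8 and 25.1 CPM against 17, 15.5 and 17.7 CPM (-0.87 ± 0.20, adjusted p = 0.00702). Each of these 3 had K186R libraries below all Bap1KO libraries and stayed called without Bap1KO replicate 1. Dhx58, a helicase of the RNA sensor family, read 14.5, 1.71 and 5.26 CPM against 1.25, 1.41 and 0.941 CPM (-2.57, adjusted p = 0.00656, or 0.0515 with media batch as a random term).

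Antigen presentation genes went the same way with smaller differences. Of 18 genes of MHC class I presentation, 10 fell, 1 rose and 7 were not called (median -0.58), with 5 lower without Bap1KO replicate 1 and 6 without Smn1OE_K186R replicate 2. The 1 that rose, the ER chaperone Canx (0.21, adjusted p = 0.0354), was called in the fit without Smn1OE_K186R replicate 3 and in no other fit that left out a library. H2-T23, a non-classical class I molecule, read 43.2, 23.2 and 38.4 CPM in Bap1KO and 17.4, 10.2 and 7.36 CPM with K186R SMN (-1.58 ± 0.31, adjusted p = 0.00356). H2-K1, a classical one whose reads may also match its close copies, read 96.1, 61.3 and 85.0 CPM against 56.5, 34.3 and 37.8 CPM (-0.91 ± 0.21, adjusted p = 0.00667). Tap2, a peptide transporter, read 39.5, 30.8 and 33.7 CPM against 26.2, 20.4 and 22.2 CPM (-0.60 ± 0.11, adjusted p = 0.00283). Calr, the chaperone calreticulin, read 2015, 1910.2 and 1926 CPM against 1357, 1254 and 1359.7 CPM (-0.56 ± 0.08, adjusted p = 0.000698). The groups were separate in all 4. Of 15 complement genes tested, 3 fell and 12 were not called, beside 16.6% lower over all autosomal genes. C1ra, a protease that starts the classical pathway, fell from 26.2, 9.79 and 16.7 CPM to 6.15, 5.25 and 2.20 CPM (-1.95, adjusted p = 0.00838). C2 and C4b were called at adjusted p = 0.0180 and 0.0485. Both calls were lost without Bap1KO replicate 1 (0.0624 and 0.135) or Smn1OE_K186R replicate 3 (0.0607 and 0.116), and that of C4b also without Bap1KO replicate 3 (0.107) or Smn1OE_K186R replicate 2 (0.117). Without the filter on low counts, 8 complement genes were lower, and 5 with media batch as a random term. Among all autosomal genes, 2701 were lower without that filter and 16.8% with the random term. The fit without the filter kept every gene with a read (30896 over all chromosomes), so 2701 is not to be set beside 16.6%.

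**Figure D3:**
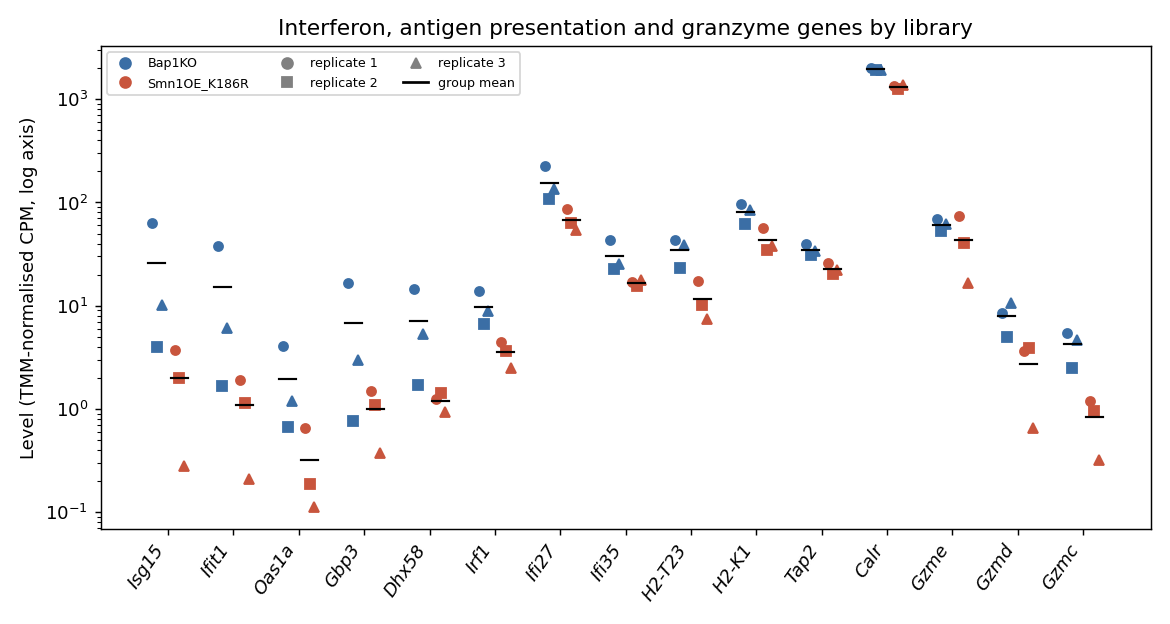
Levels of 15 interferon, antigen presentation and granzyme genes by library in TMM-normalised CPM on a log axis, Bap1KO in blue and Smn1OE_K186R in red, with marker shape for the replicate and a black line at the group mean. Bap1KO replicate 1 (blue circle) stands above the other Bap1KO libraries for Isg15, Ifit1, Oas1a, Gbp3 and Dhx58, whereas the groups are compact for Tap2 and Calr, and the groups overlap for Gzme.

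Chemokines and inflammatory cytokines moved in both directions. Of 25 tested, 8 fell, 3 rose and 14 were not called (median -0.65), with 5 lower without Bap1KO replicate 1 or without Smn1OE_K186R replicate 3. Il6, an inflammatory cytokine, read 20.3, 12.9 and 20.7 CPM in Bap1KO and 6.45, 5.19 and 2.84 CPM with K186R SMN (-1.89 ± 0.29, adjusted p = 0.00114). Cxcl1, a neutrophil chemokine, read 53.9, 34.4 and 45.4 CPM against 14.7, 9.61 and 3.37 CPM (-2.26 ± 0.45, adjusted p = 0.00354). Tnfaip3, an inhibitor of NF-kappaB signalling, rose from 2.47, 3.35 and 3.09 CPM to 8.06, 8.59 and 5.69 CPM (1.33 ± 0.26, adjusted p = 0.00354). The groups did not overlap for these 3 genes. Ptgs2, which makes prostaglandins (1.09), and the cytokine Il11 (0.85) were the others called higher (adjusted p = 0.00416 and 0.0424).

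Proliferation genes mostly had lower levels, and the number called depended on the libraries kept. Of 27 autosomal DNA replication genes tested, 13 fell and none rose (median -0.58), and of 30 mitosis genes 13 fell and none rose (median -0.76). Among all autosomal genes, 15.9% were higher and 16.6% lower. All 27 replication genes and 29 of the 30 mitosis genes had a negative log2 fold change. Rrm2, a subunit of ribonucleotide reductase, read 252, 282 and 262 CPM in Bap1KO and 164, 196 and 187 CPM with K186R SMN (-0.54 ± 0.08, adjusted p = 0.00116). Cdc45, part of the replicative helicase, read 17.6, 11 and 12.6 CPM against 6.51, 8.49 and 5.65 CPM (-0.99, adjusted p = 0.00905). Ube2c, which drives exit from mitosis, read 42.0, 31.7 and 25.1 CPM against 15.8, 20.0 and 13.9 CPM (-0.99, adjusted p = 0.0094). Smn1OE_K186R replicate 2 was the highest K186R library in all 3 genes and in the summed mitosis level (358, 609 and 350.3 CPM, against 938, 617 and 627 CPM in Bap1KO). Lower mitosis calls numbered 23 without the filter on low counts, where 2701 autosomal genes were lower. They numbered 5 without Bap1KO replicate 1, 6 without Smn1OE_K186R replicate 1, 27 without Smn1OE_K186R replicate 2 and 5 without Smn1OE_K186R replicate 3. In the fit without Bap1KO replicate 1, 10.3% of all autosomal genes were lower. Without Smn1OE_K186R replicates 1, 2 and 3, 2350, 2372 and 2121 autosomal genes were lower, beside 2668 in the full fit. Lower replication calls numbered 7 without Bap1KO replicate 1, 7 without Bap1KO replicate 3, and 8, 20 and 7 without Smn1OE_K186R replicates 1, 2 and 3.

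More p53 targets were called higher than lower. Of 25 autosomal p53 targets tested, 12 rose, 1 fell and 12 were not called (median 0.26), with 8 higher without Bap1KO replicate 1. Mdm2, the ubiquitin ligase that limits p53, read 204, 272 and 240.1 CPM in Bap1KO and 519, 499 and 513 CPM with K186R SMN (1.09 ± 0.13, adjusted p = 0.0003). Pmaip1, which encodes the pro-apoptotic protein Noxa, read 12.5, 21.2 and 13.4 CPM against 57.2, 57.9 and 55.5 CPM (1.85 ± 0.21, adjusted p = 0.00026). Trp53inp1, a stress-induced p53 cofactor, read 62.6, 50.4 and 54.3 CPM against 101, 122 and 108 CPM (0.98 ± 0.10, adjusted p = 0.000222). The groups were well apart and the K186R libraries close together in each. Cdkn1a, the cell cycle inhibitor p21, was at 959, 944 and 865 CPM against 1060.5, 862 and 1069 CPM, with overlapping groups (0.11, adjusted p = 0.357). Btg2, an antiproliferative p53 target and immediate early gene, fell instead (-0.88, adjusted p = 0.00304).

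NRF2 is a transcription factor that induces glutathione and thioredoxin genes. Of 21 autosomal genes of its response tested, 7 rose, none fell and 14 were not called (median 0.28). Slc7a11, the cystine importer for glutathione synthesis, read 6.87, 10.2 and 10.9 CPM in Bap1KO and 57.7, 32.8 and 43.2 CPM with K186R SMN (2.26 ± 0.28, adjusted p = 0.000425). Gclc, the catalytic subunit of glutathione synthesis, read 45.2, 72.1 and 65.6 CPM against 165, 113 and 133 CPM (1.17 ± 0.23, adjusted p = 0.0037). Txnrd1, a thioredoxin reductase, read 225, 394 and 347 CPM against 723, 582 and 652 CPM (1.02 ± 0.20, adjusted p = 0.00314). The K186R libraries lay above all Bap1KO libraries, and replicate 2 was the lowest of the K186R group for all 3. Gsr, which recycles glutathione, was higher by 0.50 (adjusted p = 0.00149). Nqo1 (-0.15) and Hmox1 (0.53) were not called. Without Smn1OE_K186R replicate 1 or 3, 1 gene of the list was lower. The letters TGACNNNGC, a short form of the antioxidant response element searched on both strands, were in the window of 3 of 17 members with an entry, beside 13.9% of tested autosomal genes.

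**Figure D4:**
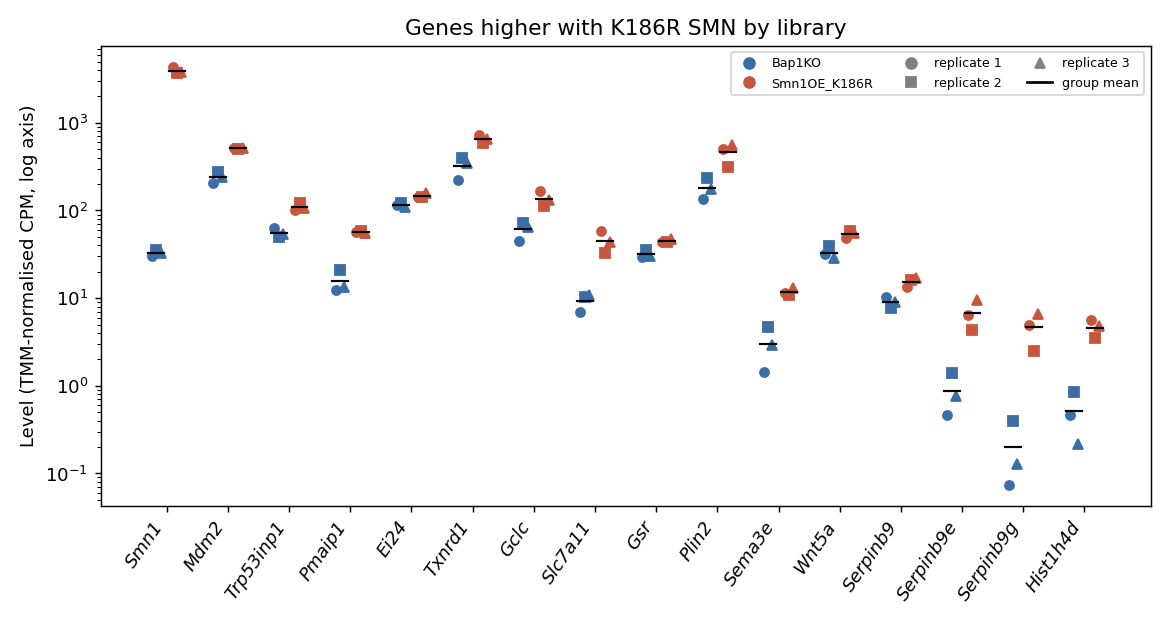
Levels of 16 genes called higher with K186R SMN in each library, in TMM-normalised CPM on a log axis, Bap1KO in blue and Smn1OE_K186R in red, with marker shape for the replicate and a black line at the group mean. Every red point lies above every blue point of its gene, with the widest gap for Smn1 and compact K186R libraries for Mdm2, Pmaip1 and Ei24.

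Metabolic groups were mainly lower. Of 23 autosomal cholesterol synthesis genes tested, 12 fell and none rose (median -0.38), with 4 lower without Bap1KO replicate 1, 6 without Smn1OE_K186R replicate 1 and 7 without Smn1OE_K186R replicate 3. Mvk, mevalonate kinase, read 29.3, 27.6 and 25.9 CPM against 17, 16.0 and 16.5 CPM (-0.74 ± 0.09, adjusted p = 0.00046). Mvd, the decarboxylase of that pathway, read 18.1, 14.1 and 12.9 CPM against 9.32, 8.37 and 9.07 CPM (-0.75 ± 0.13, adjusted p = 0.00161). Both had compact K186R libraries below all Bap1KO libraries. Of 25 glycolysis and hypoxia genes, 13 fell and none rose (median -0.37). P4ha1, a collagen prolyl hydroxylase induced by hypoxia, read 419.5, 379 and 407 CPM against 271, 277 and 238 CPM (-0.61 ± 0.09, adjusted p = 0.00103), and the phosphofructokinase genes Pfkm (-0.65) and Pfkl (-0.60) were also lower (adjusted p = 0.00151 and 0.00649).

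Adipogenic genes split. Of 26 tested, 9 fell, 2 rose and 15 were not called (median -0.57). Plin2, which coats lipid droplets in many cell types, rose from 134, 235 and 178 CPM to 506, 317 and 557 CPM (1.34 ± 0.25, adjusted p = 0.00252). Cebpd, an early adipogenic transcription factor, fell from 119.5, 59.4 and 94.9 CPM to 39.9, 33.3 and 16.8 CPM (-1.60 ± 0.34, adjusted p = 0.00536). Adipoq, the adipocyte hormone adiponectin, fell from 3.16, 4.36 and 5.19 CPM to 1.91, 0.872 and 0.885 CPM (-1.79 ± 0.39, adjusted p = 0.00597). The groups were separate for all 3, and Pparg, the master regulator of fat cells, was not called (0.23). Fasn, fatty acid synthase, was the other gene called higher (0.27, adjusted p = 0.0295). Higher calls numbered 1 without Bap1KO replicate 1, Bap1KO replicate 3 or Smn1OE_K186R replicate 3, and 4 without Bap1KO replicate 2. Of 25 genes of ER stress and the amino acid response, 3 rose and 6 fell (median -0.10), beside 15.9% higher and 16.6% lower over all autosomal genes. Dnajb9 was higher (0.62, adjusted p = 0.00205), and Xbp1 and Nupr1 were lower (-0.49 and -0.70, adjusted p = 0.00747 and 0.00193). Slc7a11 and Atf3 (0.64) were the others higher. Without Bap1KO replicate 1, 3 of this list were lower, and without Smn1OE_K186R replicate 2, 5 were higher.

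Of 37 genes for secreted nerve and muscle factors tested, 7 rose, 9 fell and 21 were not called (median -0.22), shares near the 15.9% higher and 16.6% lower over all autosomal genes. Sema3e, an axon guidance ligand, read 1.45, 4.64 and 2.90 CPM in Bap1KO and 11.6, 11 and 13.1 CPM with K186R SMN (1.99 ± 0.32, adjusted p = 0.00137). Sema3a, another repellent ligand, read 7.99, 30.5 and 10.9 CPM against 34.8, 77.6 and 62.1 CPM (1.82 ± 0.46, adjusted p = 0.011). Wnt5a, a non-canonical Wnt ligand, read 31.8, 39.0 and 28.4 CPM against 48.6, 58.3 and 55.5 CPM (0.71 ± 0.11, adjusted p = 0.00141). The K186R libraries were above all Bap1KO libraries for these ligands. The laminin chains Lama5 (-0.96, adjusted p = 0.00122) and Lamb2 (-0.85, adjusted p = 0.00195) of synaptic basal lamina were lower. Among 13 IGF pathway genes, Igfbp4, an IGF-binding protein, had the smallest adjusted p: 737, 496 and 657 CPM against 203, 152 and 133 CPM (-1.96 ± 0.18, adjusted p = 0.000106). Igf2r, which removes IGF2, was higher (0.63, adjusted p = 0.000954), Igfbp6 was lower (-1.17, adjusted p = 0.00142), and Igf1 was not called (-0.56). Igfbp2 (-1.64, adjusted p = 0.0208) was lower and the RNA-binding protein gene Igf2bp1 (0.91, adjusted p = 0.0485) higher. Igfbp2 was not called without Bap1KO replicate 2 or 3 (0.0711 and 0.0518) or Smn1OE_K186R replicate 2 (0.0752), and 1 gene of the list was higher without Bap1KO replicate 1, Bap1KO replicate 3 or Smn1OE_K186R replicate 2.

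Granzymes are serine proteases best known from cytotoxic lymphocytes, and the intracellular serpin Serpinb9 inhibits granzyme B. Gzme, named in the series title, read 69.2, 52.8 and 61.3 CPM in Bap1KO and 74.1, 40.6 and 16.5 CPM with K186R SMN. The K186R libraries spread across and below the Bap1KO range, and no difference was called (-0.48 ± 0.50, adjusted p = 0.485). Gzmc read 5.44, 2.50 and 4.68 CPM against 1.2, 0.960 and 0.320 CPM (-2.33 ± 0.55, adjusted p = 0.00844), with the groups apart. Gzmd read 8.52, 4.96 and 10.6 CPM against 3.64, 3.85 and 0.659 CPM (-1.55 ± 0.55, adjusted p = 0.0492), and it was not called when Bap1KO replicate 1 (0.0969), replicate 3 (0.140) or any K186R library was left out (0.0545 to 0.0898). Gzmm, at 0.372 to 0.686 CPM against 0.812 to 1.07 CPM, was not called (0.89, adjusted p = 0.0548). Gzmc, Gzmd and Gzme are close copies. How reads that match more than 1 of them were counted is not given, so their levels are uncertain. Of the 13 granzyme and serpin genes tested, 8 rose and 2 fell, and the 8 were all serpins. Serpinb9 read 10.3, 7.73 and 9.09 CPM against 13.5, 16.0 and 16.9 CPM (0.77 ± 0.13, adjusted p = 0.00176). Serpinb9e read 0.462, 1.39 and 0.762 CPM against 6.45, 4.38 and 9.62 CPM (2.96 ± 0.55, adjusted p = 0.00266). Serpinb9c and Serpinb9f were nearly silent in Bap1KO, with 1 to 3 reads and 0 to 2 reads per library. These serpins lie in a cluster of similar genes, and their counts are uncertain in the same way.

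The list counts in this paragraph stand beside 15.9% higher and 16.6% lower over all autosomal genes in the full fit. Of 33 autosomal genes of the BAP1 and Polycomb complexes tested, 8 rose, 2 fell and 23 were not called (median 0.07), with 3 higher without Bap1KO replicate 2 and 4 without Smn1OE_K186R replicate 2. Mbd6, a partner of BAP1, read 39.2, 34.5 and 39.5 CPM against 65.6, 59.6 and 68.7 CPM (0.78 ± 0.15, adjusted p = 0.00307). Pcgf3, a Polycomb group ring finger protein, read 94.2, 93.4 and 97.1 CPM against 122, 130.4 and 119 CPM (0.38 ± 0.06, adjusted p = 0.00142). Ring1, an H2A ubiquitin ligase, was lower (-0.53, adjusted p = 0.00309). Of 34 Hox genes tested, 2 were higher: Hoxb4 (0.73, adjusted p = 0.0085) and Hoxc5 (0.54, adjusted p = 0.0471, and up to 0.176 among the alternatives). Without Bap1KO replicate 1, Smn1OE_K186R replicate 1 or Smn1OE_K186R replicate 3, 1 Hox gene was higher. Lower Hox calls numbered 2 without Bap1KO replicate 3 and 1 without Smn1OE_K186R replicate 1. The contractile and TGF-beta response list was centred at 0.04 with 3 genes higher, 3 lower and 17 not called of 23. Skil, a feedback inhibitor of TGF-beta signalling, rose from 35.1, 36.6 and 36.0 CPM to 57.6, 80.5 and 73.0 CPM (0.97 ± 0.12, adjusted p = 0.000488), and Tgfbi, a matrix protein induced by TGF-beta, was lower (-1.25, adjusted p = 0.0043), while Acta2, smooth muscle actin, stood at 0.09. Smad7 (0.51) and Myh11 (0.81) were also called higher and Ccn1 (-0.42) and Ltbp2 (-0.77) lower. Higher calls numbered 1 without Bap1KO replicate 1, Bap1KO replicate 3 or Smn1OE_K186R replicate 3. Of 24 immediate early genes, 5 rose and 8 fell (median -0.19). Dusp6, which switches off ERK, was higher (0.96, adjusted p = 0.00033), and Junb and Nr4a1 were lower (-0.78 and -1.14, adjusted p = 0.00345 and 0.00329). Myc (0.41), Fosl1 (0.50), Atf3 (0.64) and Nr4a2 (0.63) were the others called higher. Higher calls numbered 2 without Bap1KO replicate 1 and 3 without Smn1OE_K186R replicate 1, and lower calls 5 without Bap1KO replicate 3, Smn1OE_K186R replicate 2 or Smn1OE_K186R replicate 3.

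**Figure D5:**
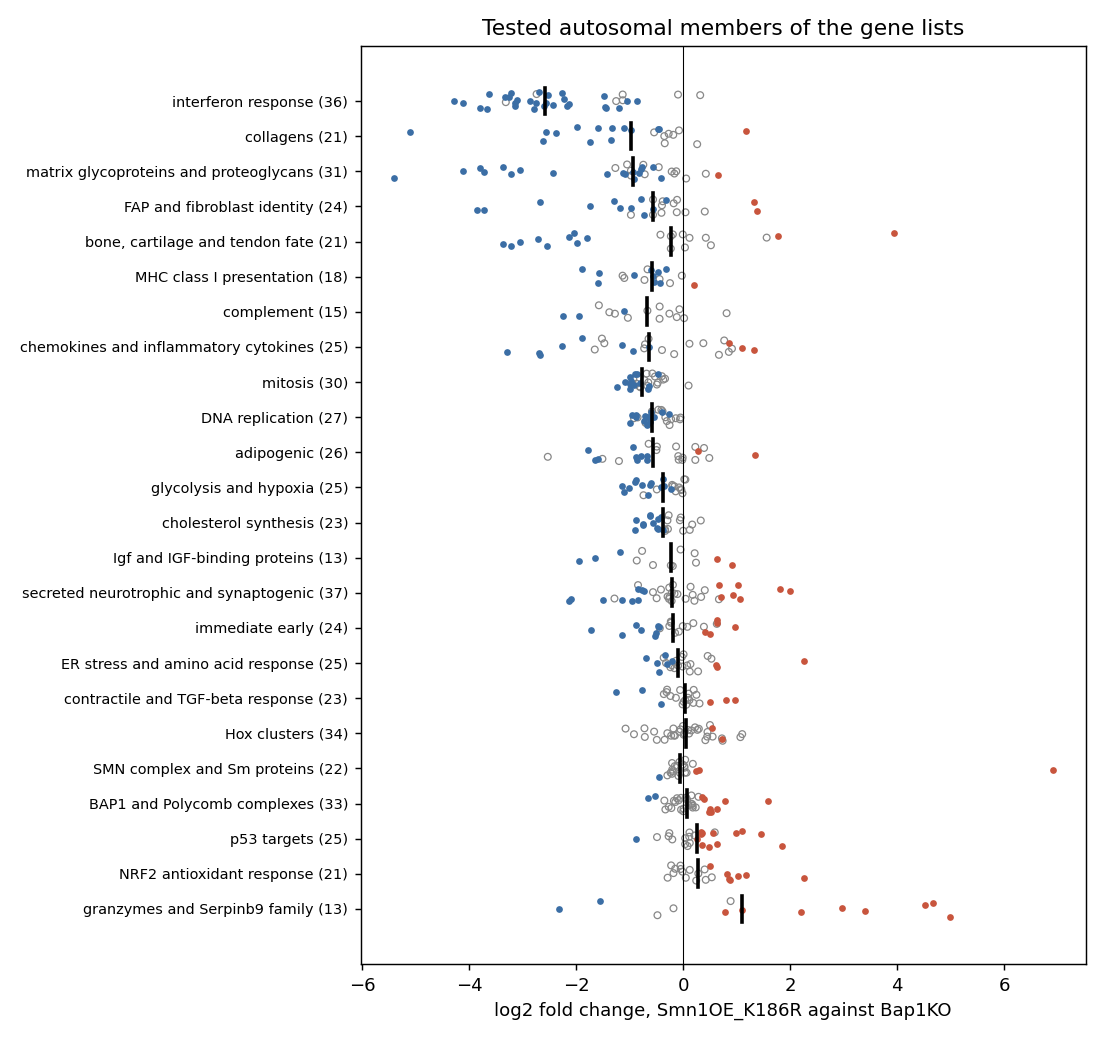
Log2 fold changes of Smn1OE_K186R against Bap1KO for the tested autosomal members of 24 gene lists (number tested in brackets), with red for members called higher, blue for members called lower, open grey circles for those not called and a black bar at the list's median. The interferon list is centred at -2.59 and the collagens at -0.97, whereas the contractile, Hox and Polycomb lists are centred near 0 and the granzyme and Serpinb9 list at 1.11.

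Some markers of other cell types were called. Of 7 myogenic markers tested, Actc1 was called higher, with 1, 5 and 3 reads in Bap1KO and 24, 27 and 21 reads in the K186R libraries. None of the 7 was called lower. Krt18 and Cldn4, epithelial genes, were higher with K186R SMN, Cldn4 with 0, 2 and 1 reads in Bap1KO and 26, 38 and 84 reads in the K186R libraries, while Epcam, the defining epithelial marker, had 2 to 9 reads and 5 to 15 reads and was not called. Krt8 had no read in Bap1KO and 2 to 8 reads with K186R SMN, and it was called at adjusted p = 0.0270 but not when Bap1KO replicate 1 (0.0657) or 3 (0.0550) or Smn1OE_K186R replicate 3 (0.0653) was left out. Of 5 epithelial markers tested, 3 were higher and none was lower (median 3.23), beside 15.9% higher and 16.6% lower over all autosomal genes. The summed epithelial level was 40.4 to 92.3 CPM in Bap1KO and 57.1 to 84.0 CPM with K186R SMN, so it overlapped. Krt18, Cldn4 and Krt8 made up little of that sum, so it does not show their difference. Summed macrophage markers were 29.2 to 37.1 CPM against 23 to 32.0 CPM, and Adgre1, which defines macrophages, had at most 1 read in a library. Of 7 macrophage markers tested, Cd68 and Ptprc were higher and Csf1r and Lyz2 lower, and none of the 4 was called without Bap1KO replicate 1. Pericyte and smooth muscle markers summed to 351 to 390.4 CPM against 297 to 449 CPM, with Rgs5 (1.4, adjusted p = 0.0104), Mcam (1.29, adjusted p = 0.0285) and Myh11 (0.81, adjusted p = 0.0380) higher and Ndufa4l2 lower (-2.40, adjusted p = 0.0446). The groups overlapped for Mcam and Myh11, and neither was called without Bap1KO replicate 1 (0.100 and 0.137), Bap1KO replicate 3 (0.0941 and 0.0866), Smn1OE_K186R replicate 2 (0.0742 and 0.139) or Smn1OE_K186R replicate 3 (0.106 and 0.0968). Ndufa4l2 was not called without Bap1KO replicate 1 or 3 (0.121 and 0.0874) or Smn1OE_K186R replicate 2 or 3 (0.130 and 0.107). Of 8 endothelial markers tested, Esam was higher (1.5, adjusted p = 0.0056) and Egfl7 lower (-0.82, adjusted p = 0.0067). Tek was lower too (-0.78, adjusted p = 0.0360), with overlapping groups, and was not called without Bap1KO replicate 1 or 3 (0.107 and 0.119) or Smn1OE_K186R replicate 2 or 3 (0.0915 and 0.107). The part of other cell types in the results was not tested.

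Whether the differences depend on the K186R substitution is addressed by Smn1OE_K186R against Smn1OE, the 2 groups that share media batches D, E and F. Without a block, 0 of 16034 genes (0%) passed an adjusted p of 0.05 in edgeR's test, with 374 (2.33%) at an unadjusted p under 0.05, and DESeq2 called 0 genes with 372 at an unadjusted p under 0.05. The share of 2.33% is below the share of 0.05 that such a threshold passes where no gene differs. The 0 calls therefore do not show that the 2 groups were alike. By value, Mdm2, Slc7a11 and Col1a1 averaged 513, 48.0 and 3181 CPM in Smn1OE, and 510, 44.6 and 3763 CPM in Smn1OE_K186R. The summed interferon level was 159 to 255 CPM in Smn1OE and 172 to 250 CPM in Smn1OE_K186R. Both SMN groups thus stood on the same side of Bap1KO in these. The list medians of Smn1OE_K186R against Smn1OE were 0.21 for collagens, -0.01 for p53 targets and 0.59 for chemokines. The replicate numbers pair the Smn1OE and Smn1OE_K186R libraries, since the labels give them the same media batch. With the replicate block, 35 of 15268 genes were called, 34 higher with K186R (0.223%) and 1 lower (0.00655%). For all 35 the mean of Smn1OE_K186R lay between those of Smn1OE and Bap1KO, and 22 of them were also called lower than Bap1KO. Because both comparisons use the same K186R libraries, this is a description of the means.

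Cxcl5, a neutrophil chemokine, had the smallest adjusted p in the blocked fit. It read 23.6, 31.5 and 3.94 CPM in Smn1OE and 56.5, 62.4 and 10.2 CPM in Smn1OE_K186R of the same batches (1.18, adjusted p = 0.000635), and 142, 132 and 134 CPM in Bap1KO. The K186R library was the higher one in each of the 3 batches, and batch F was the lowest of both groups. Svep1, a large adhesion protein, read 45.2, 39.1 and 16.6 CPM against 83.6, 76.3 and 25.7 CPM (0.83, adjusted p = 0.00412). Prelp, a proteoglycan of collagen fibrils, read 63.1, 86.6 and 25 CPM against 175, 137 and 46.8 CPM (1.01, adjusted p = 0.0131). Fmod (0.89), Thbs4 (1.05), Col6a1 (0.72), Cemip, a hyaluronan-degrading protein (0.62), and Adamts5, an aggrecan-cleaving protease (0.56), were matrix genes on the same side, with adjusted p-values from 0.00491 to 0.0477. Receptors among them were Osmr, for oncostatin M (0.53), Il1rap, for interleukin 1 (0.63), and Tgfbr3, a TGF-beta co-receptor (0.63), each with an adjusted p of 0.0131. Cacna1g, Ptx3, Cyp1b1 and Cxcl1 were called at the same adjusted p (0.71, 0.73, 0.53 and 0.95). Nes, the intermediate filament nestin, was the 1 gene lower with K186R (-0.42, adjusted p = 0.0369), at 71.3, 73.6 and 82.8 CPM in Smn1OE, 50.3, 57.0 and 63.3 CPM in Smn1OE_K186R and 13.9, 33.0 and 15.2 CPM in Bap1KO. Smn1 itself was not called in the blocked fit (-0.26, adjusted p = 0.346). Gzme read 44.8, 46.6 and 10.5 CPM in Smn1OE and was not called against K186R (blocked 0.37, adjusted p = 0.448).

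WT libraries place the levels beside cells given ethanol and no vector, in comparisons that share the K186R and Bap1KO libraries and are given as values. WT came from media batches A, B and C, as Bap1KO did, and its Xist averaged 228 ± 32.6 CPM with Eif2s3y at 0. Values of Smn1OE_K186R against WT are therefore confounded in the same way as those against Bap1KO. The mean of Col1a1 was 12679 ± 2036 CPM in WT, 9441 ± 2262 CPM in Bap1KO and 3763 ± 631 CPM with K186R SMN (SD, n = 3). The gene had log2 fold changes of -0.43 for Bap1KO against WT (adjusted p = 0.235) and -1.75 for Smn1OE_K186R against WT (adjusted p = 9.1e-05). Mdm2 averaged 195 ± 28.0, 239 ± 34.0 and 510.3 ± 10.2 CPM in the same order, 0.29 for Bap1KO (adjusted p = 0.159) and 1.39 for Smn1OE_K186R (adjusted p = 1.64e-05) against WT. Slc7a11 averaged 5.71 ± 0.175, 9.32 ± 2.15 and 44.6 ± 12.5 CPM, and Igfbp4 averaged 861 ± 107, 630.2 ± 123 and 162 ± 36.1 CPM. In these 4 genes the K186R mean was farther from WT than the Bap1KO mean was, on the same side. Fmod had means of 309 ± 91.0 CPM in WT, 302 ± 129 CPM in Bap1KO and 36.6 ± 10.5 CPM with K186R SMN, and Bap1KO against WT stood at -0.03 (adjusted p = 0.971). Trim69 had 0.215 ± 0.0286 CPM in WT, below the K186R mean of 1.10 ± 0.277 CPM and above the Bap1KO mean of 0.0564 ± 0.0368 CPM. Bap1 averaged 50.5 ± 1.32 CPM in WT, and Smn1 33.6 ± 1.71 CPM.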

How the data were processed

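Total RNA was made into TruSeq libraries and sequenced in paired ends, per the labels' protocols. The submitters' processing notes name the build GRCm39, the counter HTSeq 0.9.1, the aligner STAR 2.6.1, the trimmer cutadapt 1.4.2, CASAVA 1.8.2, and DESeq2. The strand setting and annotation release are not given in the sources used here. The deposited values are raw read counts per Ensembl gene, 55335 gene rows and 5 closing rows per file; the closing rows (11.1 to 13.8% of records in the 6 libraries) were left out. Without a known strand setting, overlapping and antisense genes are uncertain. Symbols and chromosomes came from GENCODE M21 by gene ID (55154 matched), and promoter sequences from RefSeq on GRCm38.p6 by symbol.

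The main test was the quasi-likelihood test of edgeR 4.0.16 (R 4.3.3) with TMM factors, filterByExpr with a minimum count of 10, a fit of 4 group means over 12 libraries (8 residual degrees of freedom), prior count 0.125, 2-sided tests with Benjamini-Hochberg adjustment over all 16597 genes tested, and calls at 0.05. Sex-linked genes were tested and not counted. Levels are TMM-normalised CPM, not corrected for length, so they compare libraries and not genes. Alternatives were RLE size factors, DESeq2 1.42.0, no filter, 6 libraries, autosomal genes alone, limma 3.58.1 voom with media batch as a random term (correlation 0.45), the replicate block and each library left out.

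Same-numbered Smn1OE and Smn1OE_K186R libraries share a media batch per the labels, and their deviations from the group means correlated at 0.38, 0.30 and 0.43. Replicates differed by more than counting noise (chi-square per degree of freedom 40.7 to 133). The groups and gene lists were chosen with earlier results of these data known. Genes were named by rule: the 12 largest rises and falls that were called without any single library, at 1 CPM or more in a group, with groups that do not overlap and with a symbol that is not a Gm or Rik model; up to 4 members per list by adjusted p; Bap1, Smn1 and granzymes; and up to 10 genes called between the SMN groups. Others named beside them (the 4 interferon genes with sequences, Eln, Bmp2, Serpinb9f, Pdgfra, Cd34, Procr, Col7a1, Cdkn1a, Sema3a, Prelp, Col6a1, Nes and members given with a log2 value alone) were chosen after their values were seen. Some genes that the rule named are not reported here.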

Additional observations from a re-analysis of the deposited data

Results flagged for a closer look

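Data outside the autosomal comparison also differed between the groups. Genes on the Y chromosome summed to 152 ± 27.0 CPM in Smn1OE_K186R (131 to 182) and 23.5 ± 5.42 CPM in Bap1KO (SD, n = 3), and of 6 Y-linked genes tested 5 were called higher. Kdm5d, Uty, Ddx3y and Eif2s3y were at 0 in every Bap1KO library, so the Bap1KO sum came from other entries annotated to the Y chromosome. Mitochondrial genes took 2.04 ± 0.106% of the counts in Smn1OE_K186R and 1.61 ± 0.0769% in Bap1KO. Reads outside annotated genes took 3.38 ± 0.427% of the records in Smn1OE_K186R (3.05 to 3.86) and 2.64 ± 0.0570% in Bap1KO (2.58 to 2.70). Each of these stood above its level in Bap1KO in all 3 K186R libraries. Their part in the autosomal differences was not tested.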

How the results depend on the processing

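The 5213 calls against Bap1KO (2545 higher, 2668 lower) stayed within 1.5 times under RLE size factors, DESeq2, no filter, autosomal genes alone and media batch as a random term (5114 to 5832). With only the 6 libraries of both groups, 3330 were called (1611 higher, 1719 lower). Leaving out 1 library gave 3249 to 5115 calls, 1550 to 2468 higher and 1699 to 2647 lower, lowest without Bap1KO replicate 1. With the replicate block, 1411 were called (671 higher, 740 lower), but these groups share only numbers: same-numbered libraries correlated at 0.07, -0.20 and -0.09. Against Smn1OE the count was 0 in every fit without the block, each library left out included (0 to 0), and 35 with it (34 higher, 1 lower). The cause was not tested. Among the named genes, the sign turned for 3 that were called in neither fit: Des against Bap1KO was 0.0059 without Bap1KO replicate 2, and -0.59 to 0.0059 over the libraries left out. Against Smn1OE, Gzme was -0.06 without Smn1OE replicate 3 and -0.25 without Smn1OE_K186R replicate 1, within -0.25 to 0.75 over the libraries left out. Gzmd was -0.10, -0.02 and -0.09 without Smn1OE replicate 3, Smn1OE_K186R replicate 1 and Smn1OE_K186R replicate 2, within -0.10 to 0.75. Depth limits genes under about 0.1 CPM, where a library holds few reads.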
